A study of Mus musculus with 2 samples.

Results

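The Cyp2 genes encode family 2 of the cytochrome P450 enzymes, and were taken here as the protein-coding genes whose symbol starts with Cyp2 followed by a letter. GENCODE M1 on mm9 holds 50 of them among 22367 protein-coding genes, and RefSeq on mm10 (GRCm38.p6) holds 48 among 21887. Cyp2j7-ps and Cyp2d37-ps are protein-coding in the mm9 annotation only, and Cyp2c44 of mm9 is Cyp2c23 in mm10. The histone mark H3K9me3 was mapped by ChIP-seq in E14TG2a.4, a male mouse embryonic stem cell line of strain 129/Ola, in 2 biological replicates. There is 1 group, with no treatment, genotype or second cell type to set it against, so no difference between conditions was tested and no p-value is given. Both replicates derive from the same line. The data are peak lists without read counts, so depth is unknown, and only agreement between the replicates can be judged.

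P450 enzymes are haem proteins of the endoplasmic reticulum that take electrons from a reductase encoded by Por and insert oxygen into drugs, steroids, fatty acids and vitamins. Family 2 is the largest in the mouse. Most of its members work in liver, kidney, lung, gut or nasal epithelium, and many arose as tandem copies that lie side by side and remain very alike in sequence. H3K9me3, trimethylation of lysine 9 of histone H3, marks silent chromatin and is well known at repeats. Because near-identical copies share reads, and how such reads were placed is not stated in the labels or file lists, coverage of the most alike members is uncertain.

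H3K9me3 lay at 11 of 50 Cyp2 promoters, 22.0%, against 5.54% of all protein-coding genes. Promoters here are the 1 kb either side of any transcript start on mm9, and one was called marked when at least 1 bp was covered in both replicates. Other Cyp genes, those outside family 2, had 9 of 48 marked, 18.8%, so the Cyp2 share was close to that of other P450 families. The 11 genes were Cyp2a4, Cyp2a5, Cyp2b23, Cyp2t4 and Cyp2r1 on chromosome 7, Cyp2c40, Cyp2c67 and Cyp2c69 on chromosome 19, Cyp2d12 and Cyp2d37-ps on chromosome 15, and Cyp2j5 on chromosome 4. The other 39 had no base of the window covered in both replicates.

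The sequences before 6 marked starts and 2 unmarked ones show how alike the copies are. Each stretch is the 250 bases before the start site on the gene's own strand, 5′ to 3′, read from the mm9 genome. The 4 Cyp2c copies are Cyp2c67 (chr19:39723542-39723791, minus strand), Cyp2c69 (chr19:39961260-39961509, minus strand), Cyp2c40 (chr19:39887305-39887554, minus strand), all marked, and Cyp2c68 (chr19:39815545-39815794, minus strand), the unmarked copy nearest in coding sequence to Cyp2c67. Capitals in the last 3 mark bases that differ from Cyp2c67 within the aligned part. The unaligned ends stay in lower case, since annotated starts do not sit at matching bases.
Cyp2c67: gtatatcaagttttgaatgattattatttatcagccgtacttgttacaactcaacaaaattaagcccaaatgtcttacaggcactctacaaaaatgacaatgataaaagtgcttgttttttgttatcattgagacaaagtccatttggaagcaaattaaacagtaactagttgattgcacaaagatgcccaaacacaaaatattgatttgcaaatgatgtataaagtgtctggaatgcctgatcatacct
Cyp2c69: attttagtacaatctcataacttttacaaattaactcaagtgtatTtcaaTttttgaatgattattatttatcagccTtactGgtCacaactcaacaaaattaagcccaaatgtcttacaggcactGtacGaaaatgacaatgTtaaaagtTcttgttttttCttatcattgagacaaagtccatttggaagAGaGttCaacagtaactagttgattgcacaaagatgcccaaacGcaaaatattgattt
Cyp2c40: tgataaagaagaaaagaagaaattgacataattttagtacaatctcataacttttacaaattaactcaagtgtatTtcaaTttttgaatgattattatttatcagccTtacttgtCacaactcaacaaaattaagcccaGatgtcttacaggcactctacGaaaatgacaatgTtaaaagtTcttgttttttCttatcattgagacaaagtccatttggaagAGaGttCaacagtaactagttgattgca
Cyp2c68: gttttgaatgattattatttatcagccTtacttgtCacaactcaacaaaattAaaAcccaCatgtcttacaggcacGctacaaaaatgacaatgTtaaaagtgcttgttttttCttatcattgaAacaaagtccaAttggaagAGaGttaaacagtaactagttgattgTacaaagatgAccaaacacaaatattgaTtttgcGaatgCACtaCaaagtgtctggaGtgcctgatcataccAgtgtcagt
Cyp2c69 differed from Cyp2c67 at 15 of 209 aligned positions, an identity of 92.8%. Cyp2c40 had 13 substitutions in 179 aligned positions, 92.7%. Cyp2c68 had 21 substitutions and 3 gap bases in 243, 90.1%. These identities rest on aligned parts of different length, so they do not rank the unmarked copy against the marked ones. Cyp2c68 counts as unmarked because only replicate 2 had a region there, with a fold enrichment of 4.33.

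Cyp2b23 (chr7:27471457-27471706, minus strand) had the highest mean fold enrichment of the family, and is shown with Cyp2b19 (chr7:27541932-27542181, plus strand), its nearest paralog, which was not marked. Capitals mark bases that differ between the pair, and the unaligned ends stay in lower case.
Cyp2b23: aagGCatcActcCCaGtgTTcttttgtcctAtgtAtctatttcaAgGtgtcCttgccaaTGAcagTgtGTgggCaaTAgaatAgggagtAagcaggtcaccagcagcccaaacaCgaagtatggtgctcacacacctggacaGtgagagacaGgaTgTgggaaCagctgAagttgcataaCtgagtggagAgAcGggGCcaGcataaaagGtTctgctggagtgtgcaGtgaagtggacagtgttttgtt
Cyp2b19: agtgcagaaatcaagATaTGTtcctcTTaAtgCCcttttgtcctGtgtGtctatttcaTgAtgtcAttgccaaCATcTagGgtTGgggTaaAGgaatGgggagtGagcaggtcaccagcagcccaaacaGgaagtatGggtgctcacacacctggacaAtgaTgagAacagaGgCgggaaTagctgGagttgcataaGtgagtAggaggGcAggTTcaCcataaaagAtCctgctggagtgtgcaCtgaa
These stretches were 79.7% identical over 241 aligned positions. Cyp2a4 (chr7:27091959-27092208, plus strand) and Cyp2a5 (chr7:27620074-27620323, plus strand) were both marked in mm9 and are shown because the 2 builds gave different results there. Capitals again mark the bases that differ.
Cyp2a4: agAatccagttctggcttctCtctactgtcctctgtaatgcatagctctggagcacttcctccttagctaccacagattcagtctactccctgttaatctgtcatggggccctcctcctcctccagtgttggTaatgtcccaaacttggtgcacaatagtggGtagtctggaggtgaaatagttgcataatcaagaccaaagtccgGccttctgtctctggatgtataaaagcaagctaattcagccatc
Cyp2a5: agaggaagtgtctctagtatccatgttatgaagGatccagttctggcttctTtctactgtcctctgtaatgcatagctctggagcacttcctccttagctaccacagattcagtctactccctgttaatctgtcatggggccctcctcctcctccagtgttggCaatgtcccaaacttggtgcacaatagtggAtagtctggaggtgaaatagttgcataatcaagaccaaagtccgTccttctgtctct
Counted from 1 at the 5′ end of the Cyp2a4 stretch, the only substitutions from Cyp2a4 to Cyp2a5 in 219 aligned positions were A3G, C21T, T133C, G163A and G207T, an identity of 97.7%. The same stretch was searched in every member for 2 short motifs on both strands. TATAAA, a core TATA box, was in 17 of 50 Cyp2 genes, 34%, against 12.3% of all protein-coding genes. AGGTCA, a nuclear receptor recognition motif, was in 12, 24%, against 12.5%. Each motif was in 4 of the 11 marked members. The TATA motif was in 13 of the 39 unmarked members and the nuclear receptor motif in 8. Annotated starts do not sit at matching bases, which bears on these counts. The TATAAA of Cyp2a4, for example, lies past the base at which the aligned Cyp2a5 stretch ends. A match is a description of the letters and not evidence of binding.

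At each marked promoter the value is the fold enrichment of the strongest overlapping region in each replicate, a linear ratio set by the authors. Cyp2b23 had 4.19 in replicate 1 and 5.56 in replicate 2, a mean of 4.87 ± 0.964 (SD, n = 2). Cyp2c69 had 3.42 and 5.50 (4.46 ± 1.47), and Cyp2c67 had 3.45 and 5.33 (4.39 ± 1.32). These first 3 differ by less than the spread between their replicates. Cyp2t4 had 3.29 and 4.44 (3.87 ± 0.807), and Cyp2c40, an arachidonic acid oxygenase, had 2.90 and 4.46 (3.68 ± 1.10). Cyp2d12 had 3.20 and 3.74 (3.47 ± 0.386). Cyp2a5, the coumarin hydroxylase of mouse liver, had 3.1 and 3.81 (3.45 ± 0.502), and Cyp2a4, a testosterone hydroxylase, had 2.76 and 3.9 (3.33 ± 0.803). The lowest 3 were Cyp2r1, the vitamin D hydroxylase of liver, at 2.53 and 3.22 (2.88 ± 0.488), Cyp2j5, an arachidonic acid epoxygenase of kidney and liver, at 2.21 and 2.72 (2.47 ± 0.357), and Cyp2d37-ps at 1.74 and 2.66 (2.20 ± 0.650). Replicate 2 was the higher at 11 of 11, as at 1112 of the 1239 marked protein-coding promoters. The median of the 11 means was 3.47, against 3.77 over all 1239, and the highest was 4.87, against 17.5.

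**Figure D1:**
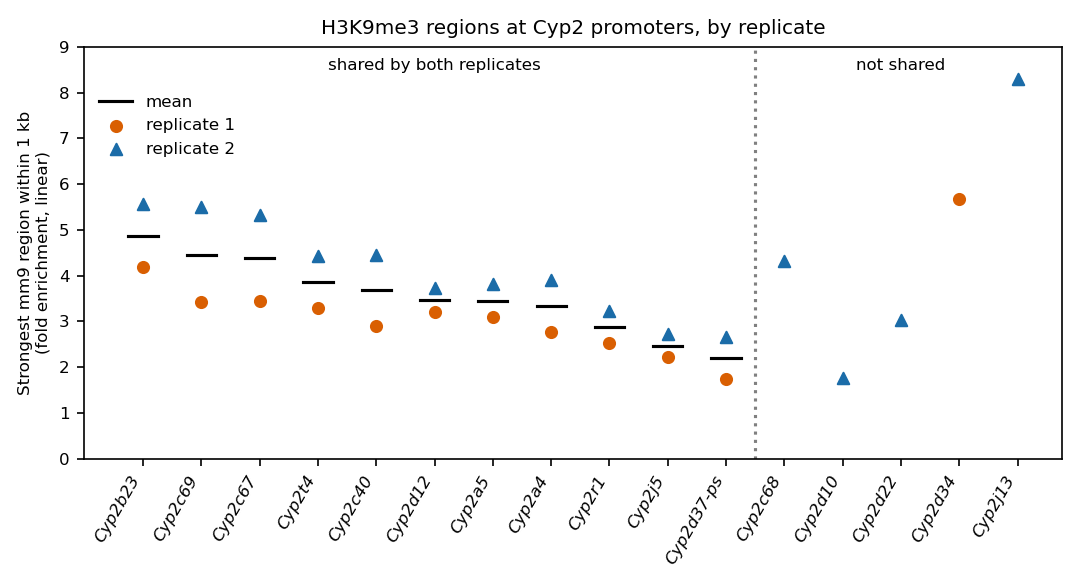
Fold enrichment of the strongest mm9 region within 1 kb of a Cyp2 start, a linear ratio, for each replicate, with the mean as a bar for the 11 promoters covered in both. Replicate 2 is above replicate 1 at all 11, and the 5 genes on the right have a region in 1 replicate only, with Cyp2j13 at 8.30 in replicate 2.

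The mark spread across the whole 2 kb window at some of these promoters and only touched others. The window was covered in full at Cyp2c67, Cyp2c69, Cyp2c40, Cyp2d12, Cyp2a4, Cyp2a5 and Cyp2j5. It was covered over 1056 bp at Cyp2b23, whose body had only 0.264% of its bases covered in both replicates: the region lies before the gene. Cyp2t4 had 1400 bp covered. At Cyp2r1 and Cyp2d37-ps the start itself was outside the shared region, by 115 bp and 272 bp. The regions at Cyp2b23 were 26000 and 31400 bp wide in replicates 1 and 2, and those at Cyp2t4 were 2200 and 2000 bp.

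A further 5 Cyp2 promoters had a region in 1 replicate only. Replicate 2 alone had one at Cyp2j13 (fold enrichment 8.30), Cyp2c68 (4.33), Cyp2d22 (3.03) and Cyp2d10 (1.77), and replicate 1 alone had one at Cyp2d34 (5.67). The values at Cyp2j13 and Cyp2d34 were above every replicate value at the 11 shared promoters, of which 5.56 was the highest. Many unmarked members had the mark nearby: their median distance to a shared region was 9528 bp. Within 5 kb of a start, 23 of 50 Cyp2 genes had a shared region, against 15.0% of all protein-coding genes, and within 10 kb 31 did, against 26.1%. Other Cyp genes had 16 and 25 of 48. The list of replicate 1 alone reached 12 Cyp2 promoters, against 6.33% of all protein-coding genes, and that of replicate 2 alone 15, against 7.83%. Where both replicates needed a fold enrichment of at least 4, 1 Cyp2 promoter remained, Cyp2b23. That was 2.00% of the family, against 1.82% of all genes and 2 of 48 other Cyp genes, 4.17%.

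The clusters as a whole were rich in H3K9me3, and most of it lay between the Cyp2 genes. There are 4 clusters: Cyp2a, b, f, g, s and t on chromosome 7 (13 genes, 1356.2 kb from chr7:26587494-27943687 in mm9), Cyp2c on chromosome 19 (14 genes, 1180.3 kb), Cyp2d on chromosome 15 (9 genes, 423.7 kb) and Cyp2j on chromosome 4 (8 genes, 636.6 kb). In mm9 both replicates covered 23.4% of the chromosome 7 cluster, against 9.34% of that chromosome. The Cyp2c cluster had 28.9%, against 5.32% of chromosome 19. The Cyp2d cluster had 40.9%, against 6.76% of chromosome 15, and the Cyp2j cluster 24.7%, against 7.77% of chromosome 4. All 4 were therefore above their chromosome, the Cyp2d cluster the most covered.

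Inside the gene bodies coverage was lower than in the rest of each cluster. Bodies against the rest of the cluster had 7.2% and 26.4% on chromosome 7, 10.5% and 44.3% for Cyp2d, 16.6% and 44.5% for Cyp2c, and 21.8% and 28.3% for Cyp2j. The bodies on chromosome 7 were below the 9.34% of that whole chromosome. The same order held in each replicate: for Cyp2c, replicate 1 had 17.4% in bodies and 48.1% in the rest, and replicate 2 had 24.2% and 51.8%. It also held with the narrower mm10 peaks, where bodies and the rest had 2.46% and 14.3% on chromosome 7, 7.42% and 19.6% for Cyp2d, 6.05% and 12% for Cyp2c, and 8.92% and 15.6% for Cyp2j. The rest of a cluster includes pseudogenes and other genes. The chromosome 7 span also holds 7 other protein-coding genes, of which Nlrp9c had a marked promoter, and the Cyp2d span holds Gm5062 and Gm5806, both marked. The Cyp2c and Cyp2j spans hold no other protein-coding gene of the mm9 annotation.

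**Figure D2:**
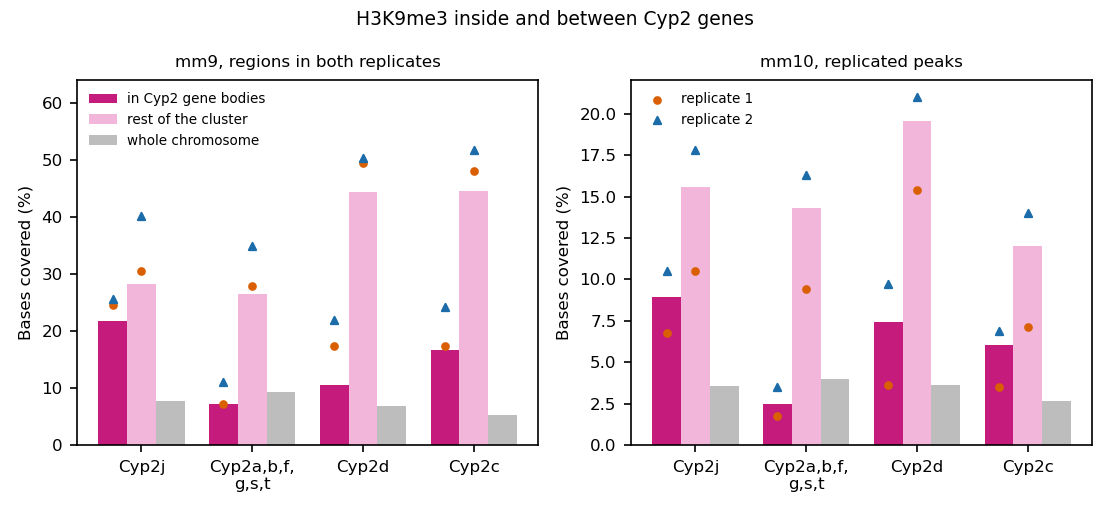
Percent of bases covered in Cyp2 gene bodies, in the rest of each cluster and in the whole chromosome, in mm9 (both replicates) and in mm10 (replicated peaks), with each replicate as a point. In all 4 clusters and both builds the rest of the cluster stands above the gene bodies, for Cyp2d at 44.3% against 10.5% in mm9.

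The longest shared region of the Cyp2d cluster ran 34.6 kb (chr15:82415201-82449800), from between Cyp2d12 and Cyp2d34 into the body of Cyp2d34. That of the chromosome 7 cluster was 31.4 kb (chr7:27268401-27299800) between Cyp2a4 and Cyp2b23, and touched no Cyp2 gene. That of the Cyp2c cluster was 27.2 kb (chr19:39957001-39984200) and covered the start of Cyp2c69. That of the Cyp2j cluster was 17.8 kb (chr4:95708001-95725800), inside Cyp2j13. The mark thus came in blocks separated by uncovered stretches, and neighbouring genes differed: Cyp2c37, next after Cyp2c69, had no covered base in its body.

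**Figure D3:**
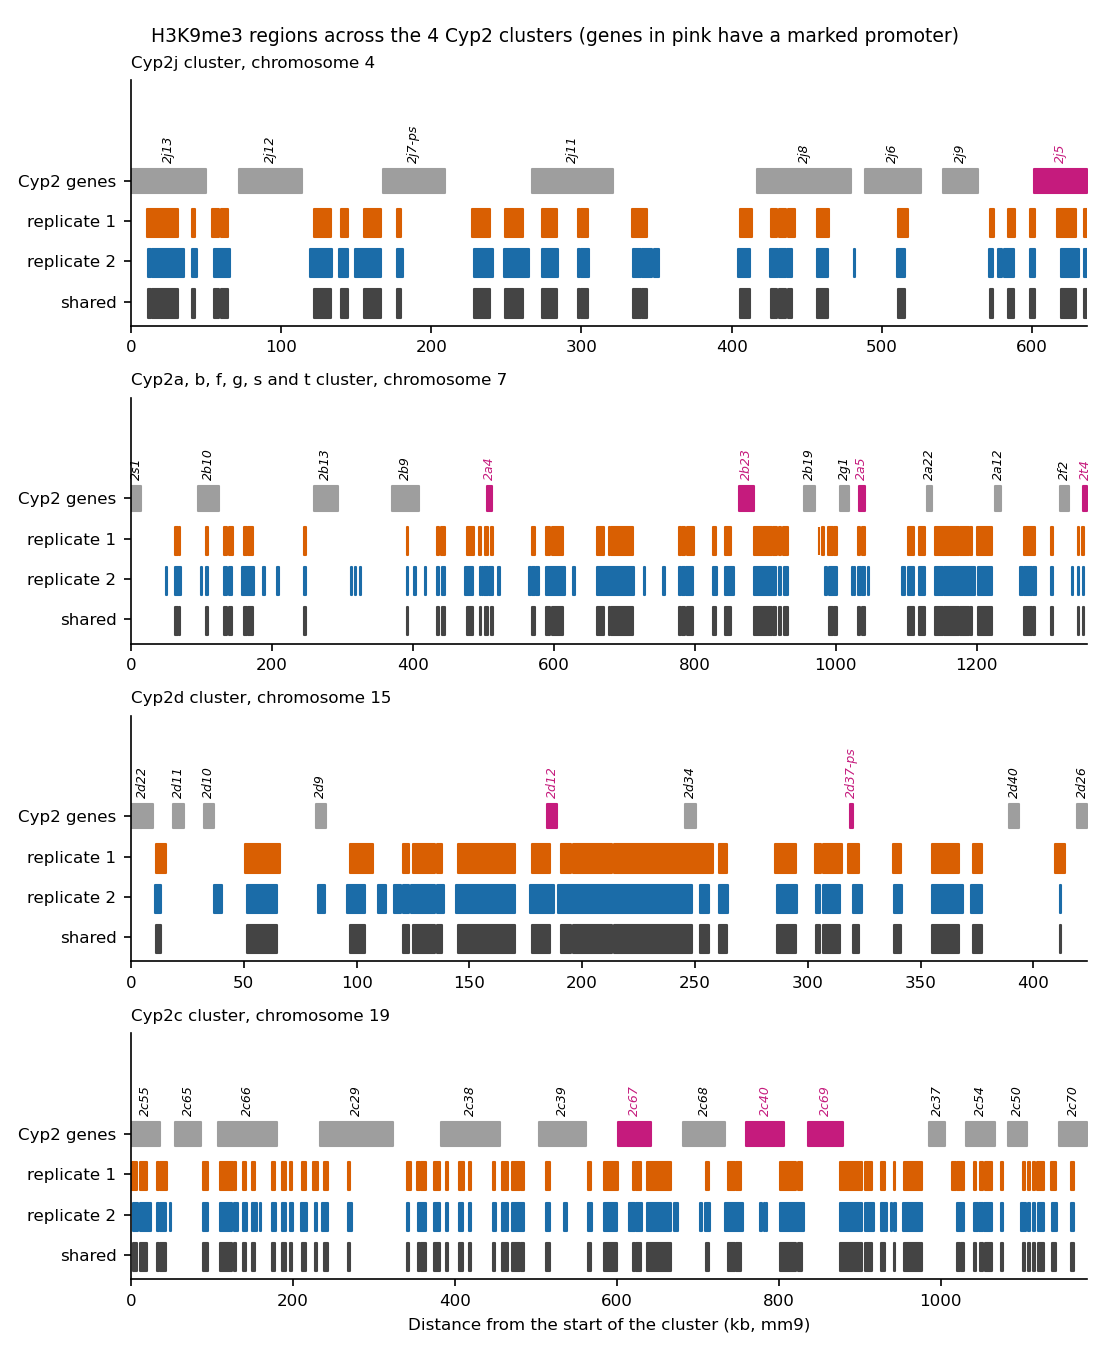
H3K9me3 regions of replicate 1, replicate 2 and both (shared) along the 4 clusters, as distance in kb from the cluster's first base in mm9, with Cyp2 genes above and those with a marked promoter in pink. The longest shared block of the Cyp2d panel, 34.6 kb, ends in Cyp2d34, and the regions of both replicates fall mostly in the same places.

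Along the genes, shared coverage was lowest at the 3′ end of the body. From 10 to 5 kb before the start, 28.5% of Cyp2 bases were covered, against 6.58% for all protein-coding genes. In the 5 kb just before the start it was 21.1% against 3.82%. Across 5 equal parts of the body it was 18.8%, 17.7%, 17.8%, 13.9% and 7.98%, against 3.09%, 3.98%, 3.87%, 3.72% and 3.4%. After the gene it was 18.7% in the first 5 kb and 33.6% in the next, against 4.72% and 7.08%. All protein-coding genes thus also had more coverage 5 to 10 kb away than inside the body. Other Cyp genes had 15.7% from 10 to 5 kb before the start and 8.26% in the 5 kb before it. Across the 5 parts of their bodies they had 12.9%, 16.2%, 10.4%, 12.7% and 10.5%, above Cyp2 genes in the last part. After the gene they had 16.2% and 29.8%, close to the Cyp2 values.

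With the mm10 replicated list, 26 of 48 Cyp2 bodies held at least 1 peak, 54.2%, against 30.8% of all protein-coding genes and 51% of other Cyp genes. The order against other Cyp genes turned with the list used: Cyp2 genes had 64.6% and other Cyp genes 70.6% in the pooled list, and 56.2% and 60.8% in the list of replicate 1. Longer genes hold peaks more often, and the median body was 22.7 kb for Cyp2 genes, 22.5 kb for other Cyp genes and 17.2 kb for all. Peaks covered 5.70% of all Cyp2 body bases, against 3.28% for other Cyp genes and 2.30% for all. At least 10% of the body was covered in 9 of 48 Cyp2 genes, 18.8%, against 5.34% of all and 9.80% of other Cyp genes. By replicate, Cyp2 coverage was 3.61% in replicate 1 and 6.67% in replicate 2, and that of all genes 1.80% and 2.44%. A body that overlaps another counts in full, which applies to Cyp2c39, annotated over 222.2 kb that include Cyp2c38.

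**Figure D4:**
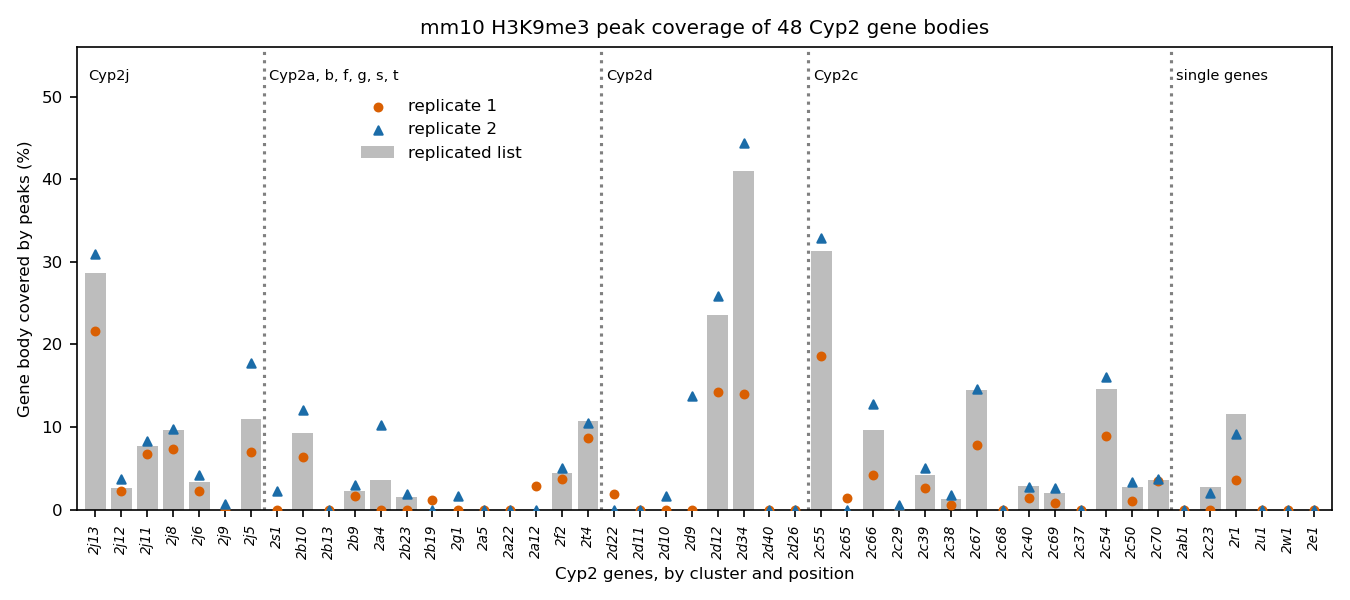
Percent of each mm10 Cyp2 gene body covered by the replicated list (bars) and by each replicate's own list (points), for 48 genes in order of cluster and position. Cyp2d34, Cyp2c55, Cyp2j13 and Cyp2d12 stand highest, at 41.0%, 31.3%, 28.7% and 23.6%, and many bodies lie at 0.

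In the Cyp2d cluster 2 of 8 mm10 bodies held a replicated peak, against 30.8% of all protein-coding genes. These 2 were among the most covered of the family. The Cyp2d bodies were short, from 4.29 to 9.73 kb, so their count is not directly comparable with those of the longer Cyp2c and Cyp2j genes. Cyp2d34 had 41.0% of its body covered, with 14% in replicate 1 and 44.4% in replicate 2. Its strongest peak was weak, a fold enrichment of 4.05, at 4.46 kb from the 5′ end. Cyp2d12 had 23.6%, with 14.2% and 25.8%, and its peak was the strongest on any Cyp2 gene, a fold enrichment of 18.2 over 2833 bp, with 13.0 and 19.1 in the replicates, centred at -0.841 kb from the 5′ end, ahead of the gene. Cyp2d22, Cyp2d11, Cyp2d10 and Cyp2d9, a testosterone hydroxylase of male liver, had 0% in the replicated list. Cyp2d40 and Cyp2d26 also had 0%. Replicate 2 alone covered 13.8% of Cyp2d9.

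The pseudogenes Cyp2d34-ps and Cyp2d33-ps were more covered than any coding gene of the Cyp2d cluster. Cyp2d34-ps was covered from end to end in the replicated list, 98.2% in replicate 1 and in full in replicate 2, by a peak 4976 bp wide with a fold enrichment of 21.9, above any on a coding Cyp2 gene. Cyp2d33-ps had 48.9% and Cyp2d36-ps 27.0%. Cyp2d67-ps, outside the cluster span, had 39%, with 0% in replicate 1 and 40.6% in replicate 2. Among all 23 Cyp2 pseudogenes 13 held a peak, 56.5%, against 11.4% of all 10609 RefSeq pseudogenes. Their median length was 6.59 kb against 0.921 kb, which bears on that count. By bases, 8.59% of Cyp2 pseudogenes was covered, against 4.71% of all pseudogenes and 5.70% of coding Cyp2 bodies. Cyp2c71-ps, Cyp2j14-ps and Cyp2a21-ps had 21.6%, 17.8% and 15.7%. These pseudogenes were named after their values were seen.

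In the Cyp2c subfamily 11 of 15 bodies held a peak, against 30.8% of all protein-coding genes. The bodies ran from 19.8 to 222.2 kb, and peaks covered 5.52% of their bases. Cyp2c55, an arachidonic acid hydroxylase of gut and liver, had 31.3% of its body covered, with 18.6% in replicate 1 and 32.9% in replicate 2, in 15 peaks. The strongest of them had a fold enrichment of 14 and lay 17.6 kb into the gene. Cyp2c54 had 14.6% (8.85% and 16.1%), Cyp2c67 14.5% (7.86% and 14.6%) and Cyp2c66 9.63% (4.23% and 12.8%). Cyp2c40 had 2.82% and Cyp2c69 2.04%, and in both the strongest peak lay near the start, 1.44 kb and 0.740 kb from the 5′ end. Cyp2c65, Cyp2c29, Cyp2c68 and Cyp2c37 had 0%. Cyp2c70, which makes the muricholic bile acids of mice, had 3.58% (3.45% and 3.67%). Cyp2c23, an epoxygenase of kidney that lies apart from the cluster, had 2.75%, from a peak of fold enrichment 2.18 that replicate 1 did not have.

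The Cyp2j cluster, whose products are mainly fatty acid epoxygenases, had a peak in 6 of 7 bodies, against 30.8% of all protein-coding genes. Its bodies ran from 24.1 to 63.4 kb, and 8.92% of their bases were covered, the highest share of the 4 clusters. Cyp2j13 had 28.7%, with 21.6% in replicate 1 and 31% in replicate 2, and a strongest peak of fold enrichment 15.5 at 20.8 kb from the 5′ end. Cyp2j5 had 11.0% (7.01% and 17.8%), with a strongest peak of 6.98 centred at 37.1 kb, just past the far end of the gene. Cyp2j8 had 9.67% (7.39% and 9.71%). The other bodies with a peak, Cyp2j11, Cyp2j6 and Cyp2j12, had 7.67%, 3.35% and 2.61%, and Cyp2j9 had 0%.

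On chromosome 7 the cluster of 6 subfamilies had the lowest body coverage, 2.46%. Cyp2t4 had 10.7% (8.66% and 10.5%), from 1 peak of fold enrichment 7.05 centred 0.008 kb from the annotated 5′ end. Cyp2b10, the gene that phenobarbital induces through the receptor CAR, had 9.32% (6.32% and 12%), with its strongest peak, 8.12, at 12.2 kb. Cyp2f2, which activates naphthalene in club cells of the lung, had 4.38% (3.67% and 4.98%), with a peak of 5.10 at 11.7 kb. Cyp2b9 had 2.23%, Cyp2b23 1.53% and Cyp2a4 3.58%, the last 2 with no peak on the body in replicate 1. The 1 peak on Cyp2b23, of fold enrichment 2.67, was not overlapped in replicate 2 either, which covered 1.85% of that body elsewhere. Cyp2b13, Cyp2b19, Cyp2a5, Cyp2a22 and Cyp2a12 had 0% in the replicated list, as did Cyp2g1, of olfactory epithelium, and Cyp2s1, of skin and other epithelia.

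Of the 6 genes outside the clusters, Cyp2c23 and Cyp2r1 held a replicated peak, and 30.8% of all protein-coding genes did. Having none was thus the common case among all genes too. Cyp2e1, which oxidises ethanol in liver, Cyp2w1, Cyp2u1, a fatty acid hydroxylase, and Cyp2ab1 had 0% in both replicates and in the replicated list. Cyp2c23, given above, had 1 peak over 2.75% of its body. Cyp2r1 was the most covered of these genes, with 11.6% of its body in 3 peaks, 3.64% in replicate 1 and 9.11% in replicate 2. Its strongest peak, with a fold enrichment of 7.50 and 4.94 and 9.57 in the replicates, was 1772 bp wide and centred at -0.864 kb from the annotated 5′ end, ahead of the body. In mm9 no body base of the 6 genes outside the clusters was covered in both replicates. The promoter window of Cyp2r1 had 35.5 CpG per kb, against a median of 6 over the 11 marked Cyp2 promoters and 12.5 over all marked promoters. Unmarked Cyp2 promoters reached such densities too, with 43 at Cyp2u1 and 29.5 at Cyp2s1.

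Starts were also read in mm10 for the 41 Cyp2 genes in the promoter table. Within 1 kb of a start 8 held a replicated peak, 19.5%, against 5.89% of all genes in the table and 4 of 36 other Cyp genes. Of the 11 promoters marked in mm9, 9 were in the table and 7 were also marked in mm10. Their replicated fold enrichments were 10.8 at Cyp2c67, 7.50 at Cyp2r1, 7.35 at Cyp2c69, 7.05 at Cyp2t4, 6 at Cyp2j5, 5.70 at Cyp2c40 and 3.29 at Cyp2b23. Cyp2b23, first by the broad mm9 regions, was last of these 7 by the narrow mm10 peaks. Cyp2a4 and Cyp2a5 had no mm10 peak within 1 kb in either replicate or the replicated list. Cyp2d10 was marked in mm10 alone, at 3.30, where replicate 1 had no peak and replicate 2 had 3.86. In mm9 too, only replicate 2 had a region at that promoter, at 1.77.

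The 2 builds differed most at Cyp2a4 and Cyp2a5, the most alike copies of the family. Of 48 genes in both, 22 were covered in both builds, 19 in neither, 3 in mm9 only and 4 in mm10 only, and Spearman's rho of the covered shares was 0.73 across genes, which are not independent and come from the same libraries. Cyp2a5 had 66% of its body covered in mm9 and 0% in mm10, and Cyp2a4 62% and 3.58%. Their coding sequences are 98.5% identical, and 63.3% and 58.7% of their body bases start a stretch of 32 bases found elsewhere in mm9. In 7 genes at least 50% of body bases started such a repeated stretch, and their coverage was 22.4% in mm9 and 5.65% in mm10, a ratio of 3.96. In the other 41 it was 13.7% and 5.72%, a ratio of 2.40, against 1.57 for all protein-coding bodies. The lists differ in peak type and annotation as well as build, and the part of repeated sequence in these differences was not tested.

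**Figure D5:**
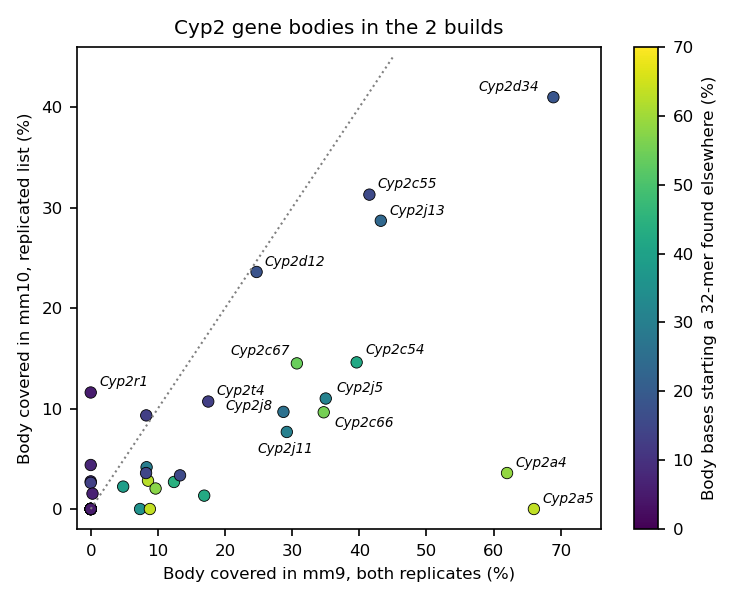
Percent of each Cyp2 body covered in mm9 (both replicates) and in mm10 (replicated list), 1 point per gene, coloured by the percent of body bases that start a 32-base stretch found elsewhere in mm9, with equality as a dotted line. Cyp2a4 and Cyp2a5, at 62% and 66% in mm9, lie at the bottom right, while Cyp2d12 lies near the line.

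Covered body sequence differed from uncovered body sequence in content. In covered mm9 bases of Cyp2 bodies 54.5% started a 16-mer present at least 50 times in the genome, a measure of repeats, against 21.9% of uncovered bases. This held for Cyp2c (59.7% against 28%) and Cyp2j (57.4% against 18.9%), while Cyp2d (4.14% against 4.69%) and chromosome 7 (17.9% against 16.5%) were about equal. CpG density was 9.76 per kb in covered and 5.76 in uncovered bases over the family, but 11 and 12.5 for Cyp2d. Over the family, exons had 10.9% of bases covered and introns 15.6%. Cyp2c alone had this order, with 4.78% of exons and 17.1% of introns covered. In the other 3 clusters exons were the more covered, at 24.8% against 21.6% for Cyp2j, 11.3% against 10.1% for Cyp2d and 11.1% against 6.56% on chromosome 7. Promoter windows did not show this 16-mer pattern: the median share was 5.30% in the 11 marked and 9.95% in the 39 unmarked members. The order turned for bases that start a 32-base stretch found elsewhere in mm9. Their median share was 23.7% in marked windows (0 to 66.7%) and 9.05% in unmarked ones (0 to 61.5%). The marked members had a median coding identity of 92.1% to their nearest paralog (43.4 to 98.5%), and the unmarked members 87.3% (53.5 to 97.2%). The ranges overlapped widely, and the lowest value was that of Cyp2d37-ps, whose coding sequence has only 453 bp.

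Among genes that work with the Cyp2 enzymes no promoter was marked. None of 7 electron donors and partners on mm9, such as Por, 24 receptors and factors that control Cyp2 genes in liver, or 14 conjugating and haem synthesis enzymes was marked, against 5.54% of all protein-coding genes. In their mm10 bodies 3 of 8, 7 of 24 and 2 of 14 held a peak, against the 30.8% of all genes. Ugt1a1, which conjugates bilirubin, had 10.2% of its body covered. Ephx2, which hydrolyses the epoxides that Cyp2c and Cyp2j enzymes make, had 9.57%. Both genes were named after their values were seen. As a check on the cells, 0 of 11 stem cell markers, 0 of 6 hepatocyte markers and 1 of 6 fibroblast markers, Lum, had a marked promoter. A silent mark does not measure expression, so this does not identify the cells.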

How the data were processed

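H3K9me3 ChIP-seq of 2 biological replicates was analysed from peak lists. The authors gave each peak a fold enrichment, a linear ratio whose denominator the labels and file lists do not state. In the mm10 narrowPeak lists the deposited significance is a −log10 q, and in the mm9 broadPeak lists a linear p-value and q-value were deposited, with boundaries at multiples of 200 bp. By the deposited file lists, both replicates' alignments went into the pooled mm10 list, and the replicated list came from it and the per-sample lists. Aligner, peak caller and the treatment of multiply mapped reads are not stated there. Wide regions reach a promoter from further away than narrow peaks.

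Regions covered in both mm9 lists were called shared and set against GENCODE M1. The replicated mm10 list was set against RefSeq bodies, and, for starts, the 41 Cyp2 genes matched by symbol in the RefSeq GRCm38.p6 promoter table. Overlap needed at least 1 bp. Only placed chromosomes were used, and each build was kept to its own coordinates. Coding identity came from edlib 1.3.9.post1, promoter alignments from biopython 1.88 and figures from matplotlib 3.10.9, run in Python 3.11.15. Overlap functions were tested on simulated data. Fold enrichments only describe or rank peaks within their list, and mean ± SD over 2 replicates describes separately called values. The members, the lists and the rules were chosen with earlier results of these data known. Named were every marked member, the 12 most covered mm10 bodies, single-gene subfamilies and up to 4 members per subfamily with 0% covered, and further names were added after their values were seen.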

Additional observations from a re-analysis of the deposited data

How the results depend on the processing

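No paired analysis was possible because there is 1 group and no comparison between groups. The number of marked Cyp2 promoters was 11, and ranged from 12 to 15 when either replicate was left out. It rose to 23 with 5 kb either side of the start (15.0% of all genes) and dropped to 1, Cyp2b23, when both replicates needed a fold enrichment of at least 4 (1.82% of all genes). The other alternatives gave 11 to 15, and 8 in the mm10 start windows, an alternative chosen after seeing the data. Body coverage was 5.70% in mm10, from 3.61% to 6.67% with 1 replicate left out. It was 3.15% for bases in both mm10 lists (1.35% for all genes, 1.93% for other Cyp genes). For shared mm9 regions it was 15.2% (3.61% for all genes, 12.6% for other Cyp genes). Of 48 bodies, 26 held a peak, from 27 to 32 with 1 replicate left out, and 9 were at least 10% covered. In each of these settings the Cyp2 share was above that of all protein-coding genes, by little at a fold enrichment of at least 4 (2.00% against 1.82%). Depth is unknown, so an uncovered member cannot be called free of the mark.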
